A study of Rattus norvegicus with 40 samples.

Results

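The mRNA levels of 9 genes of ammonia and amino acid breakdown in rat liver are described here: Nags, Cps1, Otc, Ass1 and Asl, enzymes of the urea cycle and the maker of its activator, Slc25a15, its mitochondrial carrier, and Gls2, Hal and Sds, enzymes of amino acid breakdown typical of periportal hepatocytes. They were chosen by gene symbol, as 9 of the 17337 genes counted, and all 9 were present in every library and passed the filter on low counts in every comparison. Liver RNA came from 24 male Fischer 344 rats, 7 weeks old when the treatment began. Diethylnitrosamine (DEN), a liver carcinogen, was injected into the peritoneum every week at 50 mg/kg. Non-tumoral (NT) liver was taken after 8 weeks (DEN08NT, 4 rats) and after 14 weeks (DEN14NT, 4 rats) of injections, and 6 weeks after the end of 14 weeks of injections (DEN20NT, 4 rats). At 14 and 20 weeks the same rats also gave 2 tumor nodules each (DEN14T and DEN20T, 8 nodules from 4 rats each). Liver of 4 rats without DEN was taken at each time (NOD08, NOD14 and NOD20). All are whole tissue pieces, so that fewer hepatocytes and less mRNA per hepatocyte cannot be told apart.

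The urea cycle turns ammonia, which is toxic to the brain, into urea for excretion, and the liver is the organ that holds the whole cycle. N-acetylglutamate synthase (NAGS) makes the activator that carbamoyl phosphate synthetase 1 (CPS1) requires, CPS1 fixes ammonia in the mitochondrion, and ornithine transcarbamylase (OTC) joins the product to ornithine to give citrulline. In the cytosol argininosuccinate synthase (ASS1) and argininosuccinate lyase (ASL) turn citrulline into arginine, from which urea is released, and SLC25A15 exchanges ornithine for citrulline across the inner mitochondrial membrane. In the liver lobule these enzymes, with the liver-type glutaminase GLS2, histidine ammonia-lyase (HAL) and serine dehydratase (SDS), are most abundant around the portal vein, where blood enters. Hepatocytes around the central vein instead take up the remaining ammonia with glutamine synthetase.

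Between 20528515 and 160622633 read pairs were counted per library (median 30477421), and the largest library, NT liver of rat H26 at 20 weeks, was far above the next at 39355849. Levels are counts per 1000000 counted pairs (CPM) after scaling with trimmed means (TMM), with the counts of both nodules of a rat added, so that every group has n = 4 rats. Hepatocyte genes were abundant in every sample, albumin alone taking 10.4% to 19.0% of the counted pairs. A gene was called changed when its adjusted p did not exceed 0.05 and its log2 fold change was 0.5 or more, up or down, by the quasi-likelihood test of edgeR, with Benjamini-Hochberg adjustment over all genes tested. Rats F03, F06, F09 and F10 differ in the letter of their number from all other rats, numbered H. All untreated rats are numbered H, and calls of the 9 genes that change without the F rats are given beside the results.

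Promoter sequences of 7 of the 9 genes, from 250 bases before to 50 bases after the transcription start, were found in the RefSeq table of build GRCr8, the exceptions being Hal and Sds. The 4 shown are those of the pair at the entry of the cycle, Cps1 and Otc, and of Ass1 and Gls2, whose levels had the highest correlation of any pair over all values, group differences included. They lie at chr9:76063613-76063912 (Cps1, plus strand), chrX:15202424-15202723 (Otc, minus strand), chr3:35149480-35149779 (Ass1, plus strand) and chr7:1201629-1201928 (Gls2, plus strand, the upstream start site of a pair). Capitals mark matches to 6 motifs chosen after the expression values were known and searched on both strands.
Cps1: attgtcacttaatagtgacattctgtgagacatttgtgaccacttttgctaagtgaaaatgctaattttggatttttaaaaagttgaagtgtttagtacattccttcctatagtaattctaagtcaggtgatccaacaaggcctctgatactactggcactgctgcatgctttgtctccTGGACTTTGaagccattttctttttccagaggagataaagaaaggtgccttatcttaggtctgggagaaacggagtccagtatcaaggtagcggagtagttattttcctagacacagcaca
Otc: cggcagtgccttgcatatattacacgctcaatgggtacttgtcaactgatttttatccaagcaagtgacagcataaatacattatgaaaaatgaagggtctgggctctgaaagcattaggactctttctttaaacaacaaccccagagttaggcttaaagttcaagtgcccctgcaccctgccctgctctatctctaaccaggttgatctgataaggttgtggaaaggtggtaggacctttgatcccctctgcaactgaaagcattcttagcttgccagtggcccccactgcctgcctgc
Ass1: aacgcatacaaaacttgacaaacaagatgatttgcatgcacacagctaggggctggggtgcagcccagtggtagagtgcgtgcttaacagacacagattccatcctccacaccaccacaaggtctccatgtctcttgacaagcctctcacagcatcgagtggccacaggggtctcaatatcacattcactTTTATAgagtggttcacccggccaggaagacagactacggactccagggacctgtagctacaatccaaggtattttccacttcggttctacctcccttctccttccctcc
Gls2: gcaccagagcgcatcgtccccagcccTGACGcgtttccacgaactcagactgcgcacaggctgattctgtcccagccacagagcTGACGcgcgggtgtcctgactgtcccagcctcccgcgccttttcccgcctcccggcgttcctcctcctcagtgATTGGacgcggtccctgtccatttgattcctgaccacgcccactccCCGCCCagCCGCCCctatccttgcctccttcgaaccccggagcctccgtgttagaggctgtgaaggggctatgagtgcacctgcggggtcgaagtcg
The Cps1 window holds the letters TGGACTTTG at -71 to -63 from the start site, the reverse complement of CAAAGTCCA, an element of the type bound by HNF4A, the nuclear receptor that maintains hepatocyte gene expression. That element is present in 0.391% of the 33469 promoters of the table. The Ass1 window holds the letters TATAAA of a TATA box (in 14.2% of all promoters on either strand), on the strand opposite to the gene and at -60 to -55, and the upstream Gls2 window holds a pair of GC boxes (GGGCGG, 33.1%), a pair of CRE half-sites (TGACG, 21.2%), the core bound by cyclic AMP-responsive factors, and a CCAAT box (CCAAT, 37.5%). No match to these motifs was present in the Otc window, and the C/EBP-type element TTGCNNAA (10.6%) was found in none of the 7 genes' windows. Of the windows not shown, Nags had GC boxes, which overlap by 1 base, and a CRE half-site, Asl a GC box and Slc25a15 a CCAAT box. The 4 windows differ in base composition: G and C make up 39.3% of that of Cps1, 46.7% of that of Otc, 51.0% of that of Ass1 and 65.0% of that of Gls2 (median of all promoters 51.7%), and CG dinucleotides numbered 2, 2, 6 and 25 (median of all 7). These matches are descriptions of the letters in the windows and do not show that a factor binds there.

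In rats without DEN no gene of the 9 was called between times. Ass1 averaged 1993 ± 128 CPM (SD) at 8 weeks, 2223 ± 261 at 14 weeks and 2637 ± 502 at 20 weeks, and Cps1 2263 ± 311, 2490 ± 296 and 2646 ± 394. Otc averaged 607 ± 32.8, 637 ± 26.6 and 694 ± 19.3 CPM, and Gls2 289 ± 24.5, 351 ± 43.5 and 380 ± 76.7. Otc was higher in every rat at 20 weeks than in any at 14 weeks, as 1.54% of all genes were (log2 fold change 0.14, adjusted p = 0.777). No gene of all those tested was called in either step (0.00%). At an unadjusted p under 0.05 stood 1 of the 9 genes and 1038 of 10486 tested in the earlier step, and 1 and 670 of 10432 in the later step. DESeq2 called 21 and 19 genes of all. Sds varied most between rats, with a coefficient of variation between 39.2% and 84.4% in the 8 groups, and its levels in single rats without DEN ranged from 7.02 to 35.1 CPM.

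**Figure D1:**
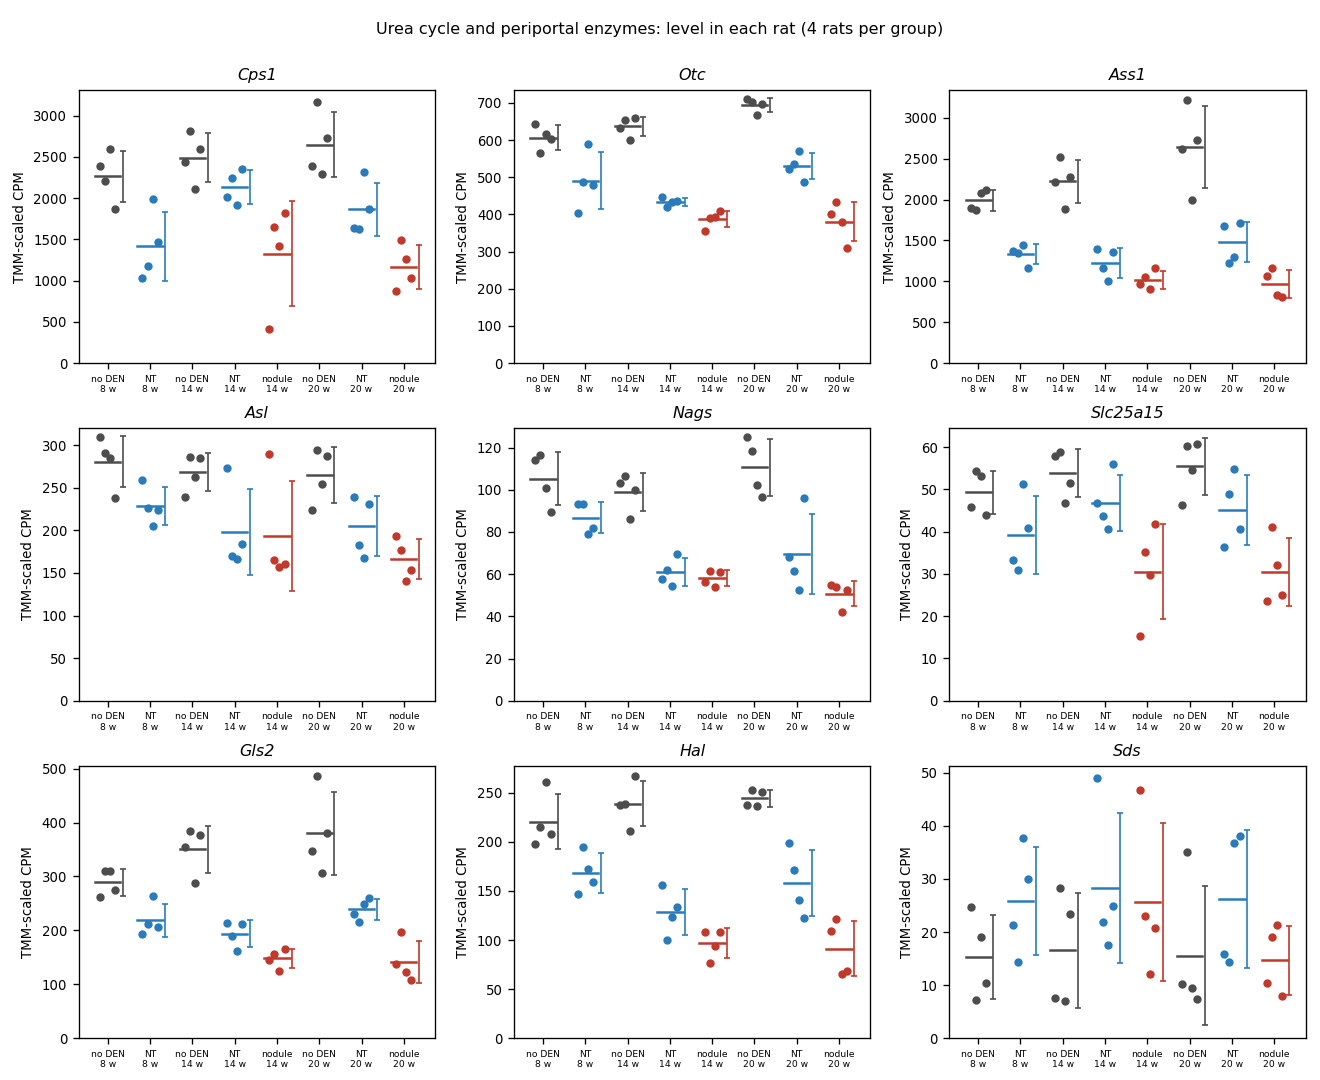
Level of each of the 9 genes in every rat, in TMM-scaled CPM on a linear axis from 0, in the 8 groups (w, weeks; 4 rats per group; nodules of a rat added). Points are rats, horizontal lines group means and vertical bars the SD; Ass1 nodules at 20 weeks lie between 808 and 1161 CPM, below the rats without DEN of that week, at 1993 to 3213, while the groups of Sds overlap.

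In NT liver after 8 weeks of DEN, Ass1 and Cps1 were lower and no gene of the 9 was called higher. These 2 of 9 compare with 5.21% of all genes tested called lower, 16.5% called higher and 21.7% in either direction. Ass1, which joins citrulline to aspartate, stood at 1894, 1872, 2082 and 2123 CPM in the 4 rats without DEN and at 1377, 1350, 1444 and 1163 CPM in the 4 treated rats. Every treated rat was below every untreated one, and the log2 fold change was -0.58 (SE 0.09, adjusted p = 0.000838). Cps1 stood at 2389, 2203, 2598 and 1864 CPM without DEN and at 1032 (F09), 1172 (F10), 1988 (H17) and 1468 (H18) CPM with it. Rat H17 lay within the untreated range, and the log2 fold change was -0.68 (SE 0.19, adjusted p = 0.021). The Cps1 call was lost without the F rats (-0.38, adjusted p = 0.0887), without F10 alone (-0.60, adjusted p = 0.0584), in the fit of all 8 groups (-0.68, adjusted p = 0.0518), and without the untreated rat H07 (-0.61, adjusted p = 0.0606). Otc, Asl, Nags, Gls2 and Hal differed by -0.41 to -0.28 on the log2 scale with adjusted p between 0.014 and 0.0481, short of the fold required. Without H17, Gls2 (-0.51) and Slc25a15 (-0.50) were called as well, making 4 of 9, while calls over all genes went from 2344 to 2913. Levels did not overlap between the groups for 2 of the 9 (Ass1 and Hal), as for 14.0% of all genes in that direction.

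After 14 weeks Otc, Ass1, Nags, Gls2 and Hal were lower in NT liver and none of the 9 was higher. These 5 of 9 compare with 9.85% of all genes called lower, 22.8% called higher and 32.6% in either direction. These 5 were also those whose levels did not overlap with untreated liver, as was seen for 26.04% of all genes in the lower direction. Otc, which makes citrulline, stood at 632, 654, 602 and 661 CPM without DEN and at 447, 421, 434 and 435 CPM in NT liver. The SD in NT liver was 10.8 CPM, no rat overlapped with the other group, and the log2 fold change was -0.52 (SE 0.07, adjusted p = 0.000173). Gls2, which frees ammonia from glutamine in the mitochondria of periportal cells, stood at 354, 384, 288 and 376 CPM without DEN and at 215, 189, 161 and 213 CPM in NT liver (log2 fold change -0.82, SE 0.12, adjusted p = 0.0002). Ass1 was lower by the same size (-0.82, adjusted p = 0.000375), followed by Nags (-0.66, adjusted p = 0.000156), and Hal, which starts histidine breakdown, had the largest difference (-0.86, adjusted p = 0.000266). Cps1 in these NT livers was at 2017, 2248, 1916 and 2353 CPM, overlapping the 2109 to 2815 CPM of untreated rats, with a log2 fold change of -0.19 (SE 0.11, adjusted p = 0.184). Slc25a15 (-0.16, adjusted p = 0.209) was not called either. Asl was called only without F06 (-0.61, adjusted p = 5.89e-05, against -0.40 with it). In F06 it stood at 273 CPM and in the other NT livers at 166 to 184 CPM.

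At 20 weeks, 6 weeks after the last injection, Ass1 (-0.82), Nags (-0.65), Gls2 (-0.66) and Hal (-0.62) were still lower in NT liver, 4 of 9 against 3.82% of all genes called lower, 14.3% called higher and 18.1% in either direction. Ass1 stood at 2614, 3213, 1993 and 2728 CPM without DEN and at 1682, 1230, 1302 and 1707 CPM in NT liver (SE 0.16, adjusted p = 0.00494). Hal stood at 237, 253, 237 and 250 CPM without DEN and at 199, 171, 140 and 122 CPM in NT liver (SE 0.13, adjusted p = 0.00658). The untreated rats were close together and the treated ones spread widely below them. Nags, with an adjusted p of 0.0246, was lost without F03 (0.0566), H25 (0.0538) or the untreated rat H14 (0.0611). Otc (-0.38, adjusted p = 0.00585) and Cps1 (-0.50, adjusted p = 0.0227) passed the adjusted p and missed the fold, Cps1 narrowly: it was called without H26 (-0.61), H28 (-0.51) or the untreated rats H13 or H15 (-0.58 each), and with all rats by DESeq2 (-0.52, adjusted p = 0.00191), with RLE scaling (-0.52, adjusted p = 0.0186) and without a filter on low counts (-0.504, adjusted p = 0.0178). Asl (-0.36, adjusted p = 0.075) and Slc25a15 (-0.28, adjusted p = 0.117) were not called. Levels did not overlap for 5 of 9 genes (12.4% of all genes in that direction). Whether the effect in NT liver differed between times was tested as an interaction term in a fit of the 4 groups concerned. None of the 9 genes was called between 14 and 8 weeks (6.52% of all genes called) or between 20 and 14 weeks (0.703%). At an unadjusted p under 0.05 stood 4 of the 9 in the earlier step, Nags, Gls2 and Hal toward lower and Cps1 toward higher, and 0 of 9 in the later one. Of all genes, 2980 of 11219 tested in the earlier step and 1912 of 11245 in the later one had such a p. In the earlier step Cps1 was called without H17 (0.67, adjusted p = 0.023) and Hal without F06 (-0.58, adjusted p = 0.0233) or all F rats (-0.56, adjusted p = 0.0389). DESeq2 and the other settings that did not leave out rats gave no further call of the 9.

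**Figure D2:**
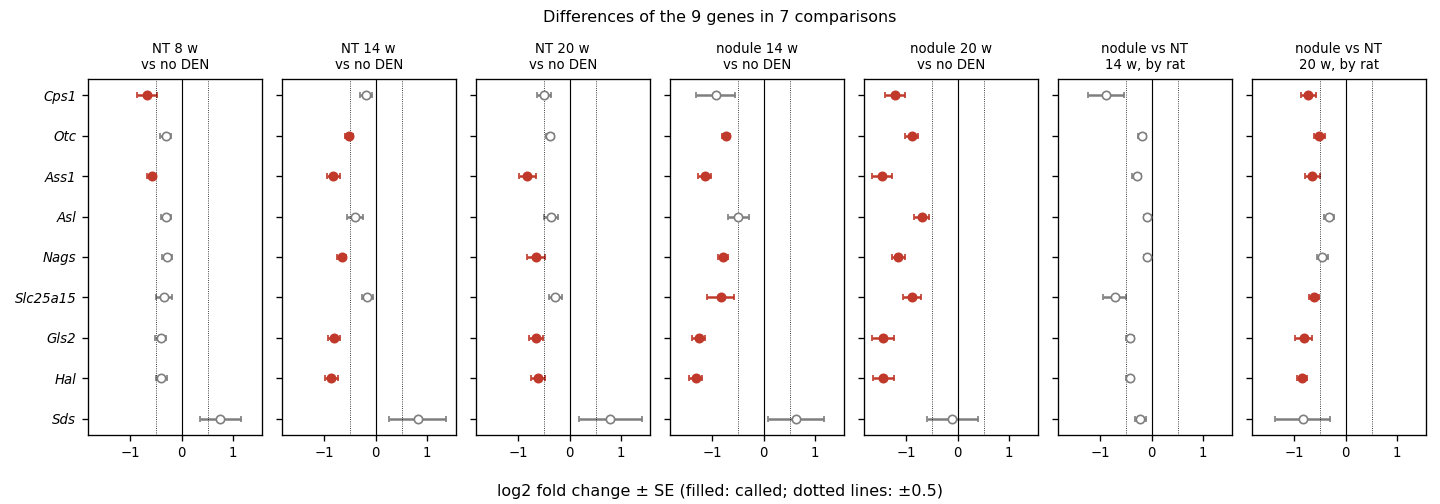
Log2 fold change with SE for each gene in 7 comparisons (w, weeks), the last pair with the rat as a block; filled points are called, and dotted lines mark a log2 fold change of 0.5 in size. At 20 weeks nodules against liver without DEN, 8 of 9 genes are filled, from -0.70 for Asl to -1.47 for Ass1.

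In nodules most of the pathway was lower than in untreated liver, and none of it was called higher. At 14 weeks Otc, Ass1, Nags, Slc25a15, Gls2 and Hal were lower, 6 of 9 against 15.2% of all genes called lower, 23.9% called higher and 39.1% in either direction. At 20 weeks all but Sds were lower, 8 of 9 against 15.2%, 23.6% and 38.8% of all genes. The median log2 fold change of the 9 genes was -0.84 at 14 weeks and -1.15 at 20 weeks, beside 0.00 and 0.01 over all genes tested. Levels of 7 and 8 of the 9 genes did not overlap with untreated liver, as for 23.9% and 21.5% of all genes in that direction. All comparisons of one week share the same untreated rats.

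Along the cycle at 20 weeks, Nags was lower by a log2 fold change of -1.15 (SE 0.12, adjusted p = 8.63e-05), Cps1 by -1.21 (SE 0.19, adjusted p = 0.000728) and Otc by -0.89 (SE 0.13, adjusted p = 0.00051). Cps1 stood at 2392, 3168, 2296 and 2729 CPM in the rats without DEN and at 880, 1489, 1258 and 1031 CPM in the nodules. No nodule sum came near the lowest untreated rat. The cytosolic steps followed, with Ass1 at -1.47 (SE 0.19, adjusted p = 0.000278) and Asl, which splits off arginine, at -0.70 (SE 0.14, adjusted p = 0.00214). Ass1 stood at 1070, 1161, 828 and 808 CPM in the nodules. Slc25a15, the ornithine carrier, was lower by -0.89 (SE 0.17, adjusted p = 0.00212), with 46.3, 60.3, 54.6 and 60.7 CPM without DEN and 23.6, 41.1, 32.1 and 25.1 CPM in nodules. Gls2 (-1.45, SE 0.21) and Hal (-1.45, SE 0.20) fell by about as much as Ass1. Gls2 stood at 348, 486, 307 and 380 CPM without DEN and at 138, 197, 124 and 109 CPM in nodules. Asl thus had the smallest difference of the 8 called genes, and Ass1, Gls2 and Hal the largest, though no test of the difference between genes was made.

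In nodules at 14 weeks Hal, Gls2 and Ass1 again differed most, with Hal at -1.32 (SE 0.13, adjusted p = 7.02e-05), Gls2 at -1.26 (SE 0.13, adjusted p = 7.6e-05) and Ass1 at -1.14 (SE 0.12, adjusted p = 9.81e-05), and Slc25a15 (-0.84), Nags (-0.79) and Otc (-0.74) followed. Cps1 had a log2 fold change of -0.93 with a wide SE of 0.38 and was not called (adjusted p = 0.0652), whereas DESeq2 (-0.92, adjusted p = 0.03), the fit of all 8 groups (-0.91, adjusted p = 0.00482) and nodule 2 alone (-0.91, adjusted p = 0.0213) called it. Its nodule sums were 408 CPM in F06 and 1653, 1426 and 1823 CPM in H21, H22 and H23, against 2109 to 2815 CPM without DEN. Without F06 the difference was smaller and the test passed (-0.60, adjusted p = 0.00067). Slc25a15 showed the same rat apart, at 15.3 CPM in F06 and 35.2, 29.8 and 41.9 CPM in the others, with a log2 fold change of -0.84 (SE 0.26, adjusted p = 0.0233). That call was lost without H22 (adjusted p = 0.0676), H09 (0.0556) or H10 (0.0583), and with nodule 1 alone (-0.75, adjusted p = 0.0686), which left 5 of 9 genes called. Asl went the other way in F06, with 290 CPM against 157 to 165 CPM in the other nodules, and it was called without that rat (-0.74, adjusted p = 7.97e-06). Without F06, 8 of 9 genes were called, while calls over all genes went from 4425 to 4686. The nodule libraries of F06 stood apart from the others of that week: 34.5% and 28.2% of their pairs were assigned to no gene by the counting rule on exons, against 22.95% to 25.5% in the other 6, and that of nodule 1 had the fewest counted pairs of all 40. The part of these library differences in the F06 values was not tested. The effect in nodules did not differ between 20 and 14 weeks for any of the 9 at an adjusted p of 0.05 (0 called, 0.0862% of all genes). All 9 differences pointed to the lower side at 20 weeks, as did 48.2% of those of all genes tested. At an unadjusted p under 0.05 stood 1 of the 9, Nags (-0.37, SE 0.15), beside 378 of 11607 genes.

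Nodules were then set against NT liver of the same rats. Rats of both tissues deviated together from their group means, with a correlation over genes of 0.39 to 0.65 between tissues of a rat, so the fit with the rat as a block is given beside the fit without it. At 14 weeks neither fit called a gene of the 9 or of all 11466 tested (0.00% in both). At an unadjusted p under 0.05 stood 3 of 9 and 1348 of all genes without the block and 6 of 9 and 2518 with it. DESeq2 called 37 of all genes and none of the 9. At 20 weeks no gene was called without the block (0.00% of 11546 tested). In that fit 7 of 9 and 2767 of all genes had an unadjusted p under 0.05. With the rat as a block, 6 of the 9 were lower, Cps1, Otc, Ass1, Slc25a15, Gls2 and Hal, against 5.46% of all genes called lower, 9.21% called higher and 14.7% in either direction. Hal had a log2 fold change of -0.85 (SE 0.10, adjusted p = 5.55e-05), Gls2 of -0.82 (SE 0.17, adjusted p = 0.0103) and Cps1 of -0.72 (SE 0.14, adjusted p = 0.00309). Ass1 (-0.65), Slc25a15 (-0.62) and Otc (-0.51) followed. Nags (-0.46, adjusted p = 0.0104) and Asl (-0.33, adjusted p = 0.0244) missed the fold alone. DESeq2 without the block called 4 of the 9, and leaving out rat H25 gave 2, Cps1 and Gls2, with 445 of all genes called. The count of all genes for DESeq2 stands in the closing section.

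Single nodules, scaled together with all 40 libraries, show how much the pathway varied within a rat. Cps1 in F06 at 14 weeks was 189 CPM in nodule 1 and 610 CPM in nodule 2, against 2109 CPM in its NT liver, and the other 6 nodules of that week ranged from 1416 to 2057 CPM. Slc25a15 in F06 was 13.8 and 17.1 CPM against 49.0 CPM in NT liver. At 20 weeks nodule 1 of F03 was the lowest in both genes, with Cps1 at 438 CPM against 1249 CPM in nodule 2 and 1724 CPM in NT liver, and Slc25a15 at 13.5 CPM against 32.3 and 38.4 CPM. These nodules were low in the entry enzyme and the ornithine carrier together. Otc in the same F03 nodule was 495 CPM, the highest of the 8 nodules of its week. Nodule 2 of H28 was the lowest of the 8 nodules of its week in Ass1, Gls2, Otc, Hal and Sds. Ass1 was 545 CPM against 1235 CPM in nodule 1 and 1772 CPM in NT liver, and Gls2 63.0 CPM against 179 and 269 CPM. Otc was 258 CPM against 407 and 506 CPM, and Hal 59.9 CPM against 87.0 and 127 CPM. Cps1 in that nodule was low as well, at 919 CPM against 1281 CPM in nodule 1 and 1943 CPM in NT liver. Albumin took 10.4% of the counted pairs of that library, the smallest share of all 40. In nodule 2 of H25, Cps1 (1895 CPM against 1697 CPM in NT liver), Ass1, Asl, Slc25a15, Gls2 and Sds were above its NT liver. Of the 8 nodules of each week, 8 and 7 (at 14 and 20 weeks) were below their own NT liver for Cps1, 8 and 7 for Slc25a15 and Gls2, 7 and 7 for Ass1, 7 and 8 for Otc, 8 and 8 for Hal, 5 and 7 for Asl, 4 and 8 for Nags and 4 and 6 for Sds. The median ratio between the higher and lower nodule of a rat was between 1.15 and 1.35 for the 9 genes at 14 weeks and between 1.14 and 1.60 at 20 weeks.

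**Figure D3:**
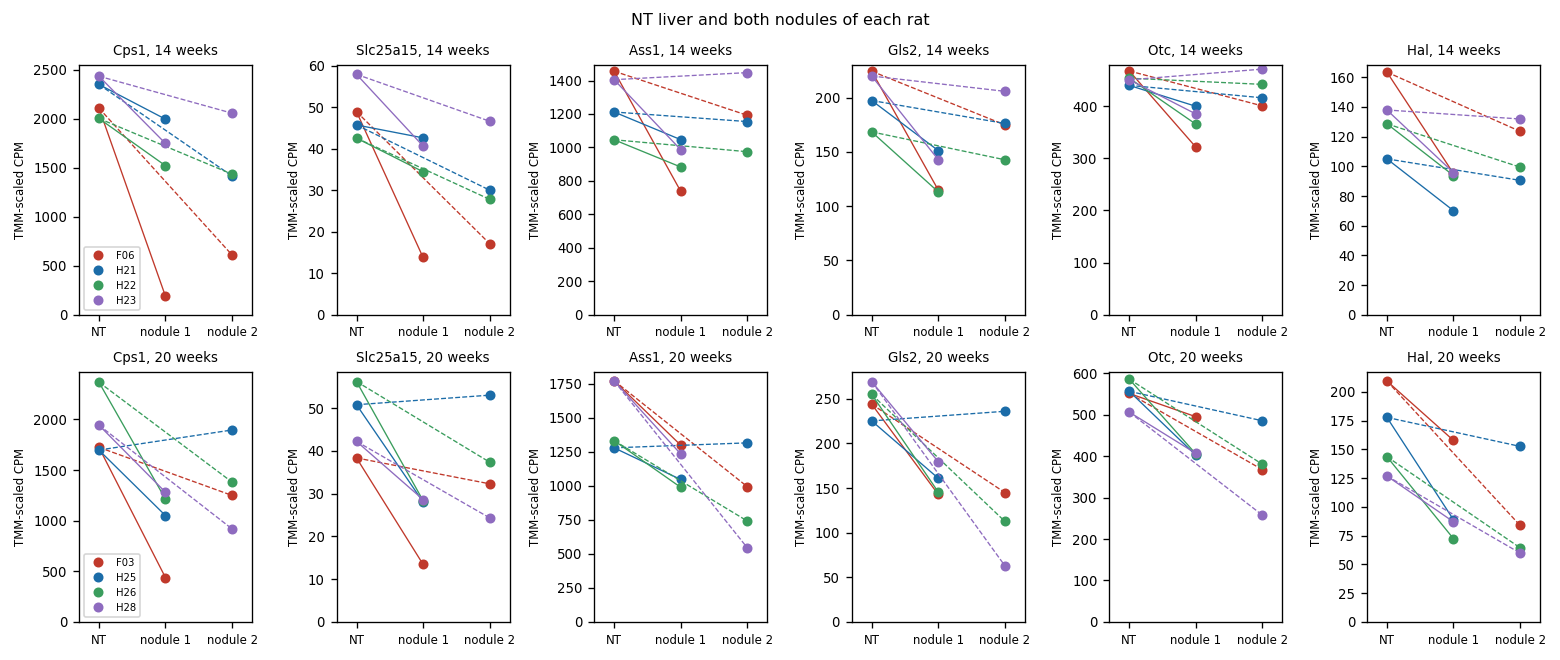
TMM-scaled CPM of 6 genes in NT liver, nodule 1 (solid line) and nodule 2 (dashed line) of each rat, at 14 weeks (upper row) and 20 weeks (lower row), with each rat in its own colour, shared along a row. Both F06 nodules at 14 weeks (red) are far below the rest for Cps1 and Slc25a15, and nodule 2 of H28 at 20 weeks (violet) is the lowest for Ass1, Gls2 and Otc.

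The levels of the 9 genes ran together to different degrees over the 32 values of rat and tissue, and no grouping of them was tested. Pearson's r of log2 CPM was 0.97 between Ass1 and Gls2, 0.95 between Cps1 and Slc25a15, and 0.94 between Otc and Gls2. It was 0.92 for Otc and Ass1, 0.91 for Gls2 and Hal, and 0.79 for Slc25a15 and Gls2. With the group means taken out, r was 0.90 for Cps1 and Slc25a15 and 0.80 for Ass1 and Gls2, while Cps1 and Asl ran against each other (-0.55), as did Slc25a15 and Asl (-0.48). The last pair of values rests largely on rat F06: without it, an alternative chosen after seeing the data, r was -0.10 for Cps1 and Asl and -0.17 for Slc25a15 and Asl, 0.84 for Cps1 and Slc25a15 and 0.79 for Ass1 and Gls2 (30 values). Leaving F06 out also moved r from 0.43 to 0.72 for Cps1 and Gls2 and from 0.52 to 0.68 for Slc25a15 and Gls2. Sds had r between -0.19 and 0.04 with the other 8 over all values, and between 0.071 and 0.56 with the group means taken out, the highest with Gls2 (0.56), Ass1 (0.41), Asl (0.41) and Otc (0.32). Without F06 the highest of the latter was with Cps1 (0.70, against 0.11 with it). These values share rats, libraries and scaling and are given as descriptions. A mean of at least 10 CPM was reached by 6320 genes, the 9 included. Among those outside the 9, the most alike were Jak1 for Cps1 (r 0.97), Acsl1 for Otc (0.96), Ceacam1 for Ass1 (0.95), Oaf for Asl (0.94), Lgalsl for Nags (0.93), Lpgat1 for Slc25a15 (0.96), Hsd17b6 for Gls2 (0.97) and Dpys for Hal (0.97). The closest to Sds was Hps5, at only 0.74. Slc38a4, an amino acid carrier, was next after Hsd17b6 for Gls2 (0.96).

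Sds, which splits serine to pyruvate and ammonia, was not called in any comparison with untreated liver. Its log2 fold change in the 3 NT comparisons was 0.75 to 0.81, with an SE of 0.40 to 0.61 and an adjusted p of 0.172 to 0.379, and in nodules the difference was 0.62 at 14 weeks (SE 0.54, adjusted p = 0.363) and -0.10 at 20 weeks (SE 0.50, adjusted p = 0.876). Leaving out each rat in turn gave 0.505 to 1.07, 0.40 to 1.19 and 0.51 to 1.56 in NT liver at 8, 14 and 20 weeks. In nodules it gave 0.18 to 0.996 at 14 weeks and -0.35 to 0.67 at 20 weeks. Against NT liver of the same rats, with the rat as a block, nodules differed by -0.22 at 14 weeks (SE 0.11, adjusted p = 0.29) and -0.84 at 20 weeks (SE 0.54, adjusted p = 0.354), below 0 as for the other 8 genes and not called. At 20 weeks it stood at 10.1, 35.1, 9.51 and 7.39 CPM without DEN, at 15.8, 14.3, 36.7 and 38.2 CPM in NT liver and at 10.4, 19.1, 21.3 and 7.89 CPM in nodules. Each group held high and low rats, and what size of difference could be detected against this spread was not tested. Without the untreated rat H14, Sds was called higher in NT liver at 20 weeks (1.56, adjusted p = 0.0448).

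Genes that bring nitrogen to the cycle were lower in part as well. Of 14 listed genes of nitrogen supply and glutamate metabolism, 12 were tested, and 10 were lower and 0 higher in nodules at 20 weeks, with a median log2 fold change of -0.70 (8 lower in nodules at 14 weeks, 4 in NT liver at 14 weeks, 2 in NT liver at 8 and at 20 weeks, and 0 higher in each). Of all genes 15.2% were called lower in nodules at either time, and 5.21%, 9.85% and 3.82% in NT liver at 8, 14 and 20 weeks. Oat, ornithine aminotransferase, which removes ornithine and is pericentral, went down furthest of this list: from 273 ± 60 CPM in NOD14 to 69.2 ± 17.8 in DEN14NT and 54.8 ± 9.96 in DEN14T. Its log2 fold change was -1.43, -1.94 and -1.09 in NT liver at 8, 14 and 20 weeks and -2.33 and -2.09 in nodules, all called. Prodh (-1.40), which starts proline breakdown, and Car5a (-0.95), the mitochondrial carbonic anhydrase that supplies bicarbonate to CPS1, were lower in nodules at 20 weeks. Glul, the pericentral glutamine synthetase, was lower in nodules (-0.61 at both times, adjusted p = 0.00484 and 0.0305) and was not called in NT liver. Its call was lost with nodule 2 alone at 14 weeks (-0.43), and at 20 weeks with nodule 1 alone (-0.49) and without F03, H26, H28 or the untreated H13 or H16 (adjusted p 0.0502 to 0.0933).

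**Figure D4:**
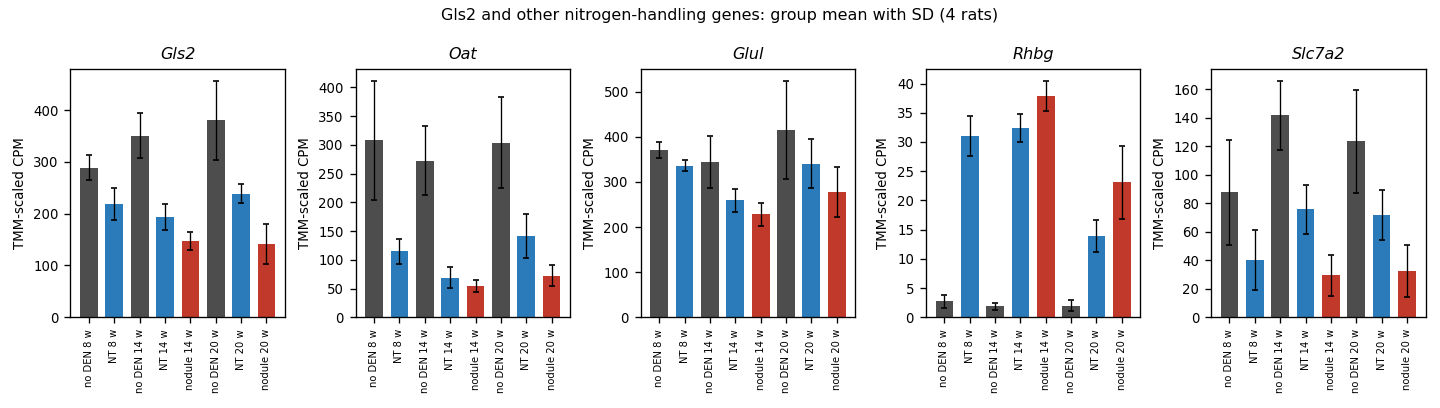
Group mean with SD (n = 4 rats) in TMM-scaled CPM, on linear axes from 0, for Gls2 and 4 other nitrogen-handling genes; w, weeks. At 14 weeks the mean of Gls2 goes from 351 without DEN to 194 in NT liver and that of Oat from 273 to 69.2, while Rhbg goes from 1.91 to 32.4.

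Of 11 listed amino acid and aspartate carriers, 9 were in the files and 8 tested. In nodules at 20 weeks, where 15.2% of all genes were called lower and 23.6% higher, 4 were lower, among them Slc7a2 (-1.96), which takes up arginine and ornithine, Slc38a4 (-1.38), a carrier of neutral amino acids, and Aqp9 (-1.28), a channel for glycerol and urea. The 1 higher was Rhbg, an ammonium transporter of pericentral cells, at 1.91 ± 0.62 CPM in NOD14 and 32.4 ± 2.3 in DEN14NT, with log2 fold changes of 3.50, 4.11 and 2.79 in NT liver and 4.29 and 3.47 in nodules, all called. Of 11 tested genes of histidine, serine and glycine breakdown, 5 were lower in nodules at 20 weeks and 0 higher, led by Agxt (-1.33), Gldc (-1.13) and Srr (-1.005). Of 8 other periportal genes, 7 were lower and 0 higher, led by Tat (-1.67), G6pc (-1.61) and Pck1 (-1.38), enzymes of tyrosine breakdown and glucose production. The 1 gene of that list called higher anywhere was Cdh1, the adhesion protein E-cadherin, at 14 weeks (0.69 in NT liver, 0.51 in nodules, the latter lost without the untreated H09, H10 or H11 and with nodule 1 alone). Pericentral genes were lower as well: of 9 tested 6 were called, among them Tbx3 (-2.59) and Cyp1a2 (-1.84), and Rhbg was higher. Of 10 regulators of urea cycle genes, 5 were lower and 0 higher in nodules at 20 weeks, led by Hnf4a (-1.14), Cebpa (-1.08), a factor that activates hepatocyte genes, Foxo1 (-1.03) and the glucocorticoid receptor Nr3c1 (-0.88). Ppargc1a, a coactivator of fasting metabolism, was called higher in NT liver at 14 weeks (0.54, adjusted p = 0.018), but not without F06 (0.42) or the untreated H09 (0.49) or H11 (0.48), nor in the fit of all 8 groups. Hnf4a stood at 731 ± 81 CPM in NOD20, 402 ± 75 in DEN20NT and 340 ± 34 in DEN20T, and it was called lower in all 5 comparisons with untreated liver (-0.51, -0.54 and -0.85 in NT liver at 8, 14 and 20 weeks). Its call fell short of the fold at 8 weeks without F10 (-0.41), both F rats (-0.45), or the untreated H05, H06 (-0.50 each) or H07 (-0.46), and at 14 weeks without H22 (-0.50), H23 (-0.49) or the untreated H12 (-0.49).

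Marker genes of whole cell types were measured beside these differences. The summed level of 8 hepatocyte markers ranged from 287900 to 322000 CPM in NOD14, 189700 to 234900 in DEN14NT and 170300 to 201300 in DEN14T. At 20 weeks it ranged from 287200 to 332700 CPM in NOD20, 233800 to 299000 in DEN20NT and 164400 to 233600 in DEN20T. In NT liver 1, 5 and 0 of these 8 were lower at 8, 14 and 20 weeks, with a median log2 fold change of -0.11, -0.60 and -0.14, beside -0.34, -0.52 and -0.50 for the 9 genes (5.21%, 9.85% and 3.82% of all genes called lower). In nodules 6 of the 8 were lower at 14 weeks and 4 at 20 weeks, with a median log2 fold change of -0.75 and -0.52, beside 15.2% of all genes called lower at either time. Apoa1 was called higher in nodules at both times (0.98 and 1.31) and in NT liver at 20 weeks (0.86), and at 14 weeks (0.54) with a call that was lost without H21, H22 or the untreated H09. The 5 bile duct markers tested rose in nodules at both times (5 of 5 called), from sums of 16.2 to 23.6 CPM in NOD14 to 63.6 to 116 in DEN14T, and in NT liver 3 of 5 were called at 8 weeks and 5 of 5 later. In NT liver at 14 weeks, where 22.8% of all genes were called higher, so were 4 of 5 tested stellate cell and fibroblast markers (sums of 141 to 186 CPM in NOD14 and 315 to 420 in DEN14NT), 4 of 6 endothelial markers (120 to 162 and 162 to 197 CPM), 2 of 4 leukocyte markers (11.4 to 15.4 and 19.3 to 36.5 CPM) and 1 of 6 macrophage markers (220.5 to 319 and 264 to 611 CPM). At 8 weeks (16.5% of all genes called higher) 5 of 5, 4 of 6, 5 of 5 and 1 of 6 of these lists were called higher, and at 20 weeks (14.3%) 3 of 5, 4 of 6, 1 of 4 and 3 of 6. In nodules 4 of 5, 4 of 6, 3 of 5 and 2 of 6 were called higher at 14 weeks (23.9% of all genes), and 4 of 5, 4 of 6, 2 of 5 and 3 of 6 at 20 weeks (23.6%). In nodules against NT liver at 20 weeks, with the rat as a block, 9.21% of all genes were called higher and 5.46% lower. In that fit 3 of 5 bile duct and 1 of 5 stellate cell and fibroblast markers were called higher. Lower were 2 of 8 hepatocyte markers (median -0.34, beside -0.65 for the 9 genes) and 1 of 6 macrophage markers, and no endothelial or leukocyte marker was called. No summed marker list was at 0 in any group. Their part in the differences of the 9 genes was not tested.

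How the libraries are scaled bears on every value above. TMM and RLE scaling set the median of all genes near 0 and gave the same counts of members within 1 gene. Scaling by total count moved the median of all genes up to 0.19, 0.44 and 0.24 in NT liver at 8, 14 and 20 weeks and to 0.57 and 0.51 in nodules, and it raised the share of calls that were higher from 76.0%, 69.8%, 78.8%, 61.2% and 60.8% to 93.0%, 94.3%, 93.9%, 93.3% and 91.9%. Under it 0, 0 and 1 of the 9 genes were called in NT liver and 3 and 5 in nodules, all lower. The share of all genes called lower under it is not given, so these counts are not read against all genes. Ass1, Gls2 and Hal remained lower in nodules at both times, and Cps1 and Nags at 20 weeks. Cps1 (0.24), Slc25a15 (0.26) and Asl (0.009) changed sign in NT liver at 14 weeks, and Asl (0.071) in nodules at 14 weeks. Oat and Rhbg were called in the same direction under total count scaling in all 5 comparisons.

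**Figure D5:**
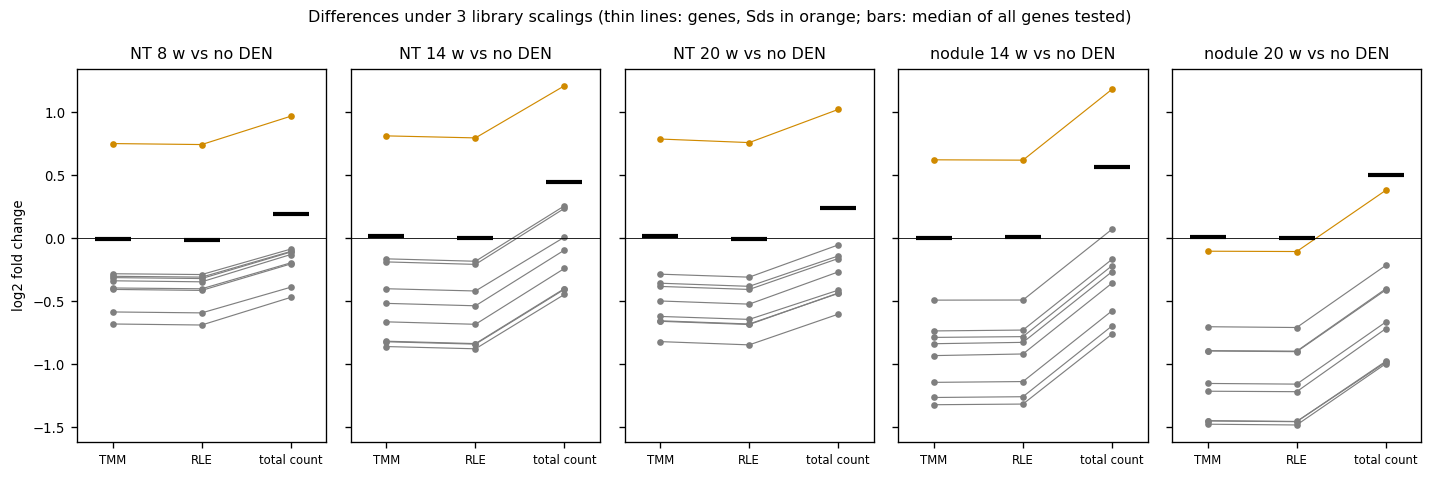
Log2 fold change of the 9 genes against liver without DEN under TMM, RLE and total count scaling (thin lines, Sds in orange), with the median of all genes tested as a black bar; w, weeks. Total count scaling lifts the 9 genes and the bar together, the median of all genes reaching 0.57 in nodules at 14 weeks.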

How the data were processed

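RNA-seq of polyadenylated, strand-specific libraries was made from 40 liver samples of 24 rats. The deposited files hold raw counts per gene, which per the labels and the study's methods the authors made by aligning read pairs to rn6 with STAR 2.7.1a and counting them with HTSeq on exons of the reverse strand, with pairs kept only where they fell fully inside exons of a gene and matched no other place. Counting lines that name no gene were kept out: of all pairs in a file, 21.5% to 34.5% were assigned to no gene by that rule, 0.816% to 1.56% were ambiguous and 7.96% to 16.3% matched several places. Genes with near-identical copies are therefore undercounted, and exon lengths were not used here, so that levels are not compared between genes.

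From these counts, those of both nodules of a rat were added. For each comparison the groups compared were filtered with filterByExpr, scaled by TMM and tested with the quasi-likelihood F test (2-sided, robust) of edgeR 4.0.16 (R 4.3.3), and p-values were adjusted over all genes tested by the Benjamini-Hochberg method. SE is the log2 fold change over the root of F. The calculation was tested on simulated data. The study's methods name DESeq2, which was used as an alternative (1.42.0). Nodules and NT liver of a rat share its number in the labels, hence the block. Every rat is a separate animal. Counts of libraries of a group differed by at least 12.9 times sampling noise (chi-square per degree of freedom). No molecular identifiers were used, so counting intervals would cover counting error only.

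Correlations and the search for the most alike genes took log2 CPM with a prior count of 2. The genes and lists were chosen with earlier results of these data known. All 9 genes are named, those without a call mostly by counts and ranges, and from each other list the up to 4 called genes with the largest differences in nodules at 20 weeks, while Glul, Cdh1, Ppargc1a and the genes singled out in text as lacking a call were named after their values were seen. Uroc1, Slc25a13, Slc25a12, Etnppl and Krt7 were listed and are not analysed here, and a further gene of the chosen set and another of the nitrogen list are not reported here. Promoters came from the RefSeq table of GRCr8, another build than that of the counts. Alternatives were RLE and total count scaling, no filter, DESeq2, a fit of all 8 groups, each rat left out, the F rats left out, each nodule alone, the rat as a block, and a stricter threshold (adjusted p 0.01 and log2 fold change 1).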

Additional observations from a re-analysis of the deposited data

Results flagged for a closer look

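In 3 of 72 sets of a gene and a group of 4 rats a single rat stood far from the other 3, by Dixon's gap test at the 95% level, and chance flags about 1 group in 20. Asl was high in rat F06 in both of its tissues at 14 weeks, at 273 CPM in NT liver (the next rat at 184) and 290 CPM in nodules (the next at 165). Sds was high in the untreated rat H14 at 20 weeks, at 35.1 CPM (the next at 10.1 CPM).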

How the results depend on the processing

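All 9 genes were counted in every library, and what depth limits was not tested. The counts of genes called among the 9 kept within 1.5 times under RLE scaling and without a filter in the comparisons with untreated liver. Total count scaling gave 0, 0 and 1 of 9 in NT liver at 8, 14 and 20 weeks and 3 and 5 in nodules at 14 and 20 weeks. The share of all genes called lower under that scaling is not given beside them. The values with the sign turned under it are 0.24 (Cps1), 0.26 (Slc25a15) and 0.009 (Asl) in NT liver at 14 weeks, 0.071 (Asl) in nodules at 14 weeks, 0.38 (Sds) in nodules at 20 weeks, and 0.062 (Asl) and 0.021 (Nags) for nodules against NT liver at 14 weeks. With nodule 2 alone, Asl (0.032), Nags (0.090) and Sds (0.016) turned in that comparison, none of them called. Sds also turned in nodules at 20 weeks with nodule 1 alone (0.12), and without the F rats (0.051), and leaving out each rat gave -0.35 to 0.67, above 0 without F03, H28 or the untreated H14. With the stricter threshold, 855, 1676 and 565 genes were called in NT liver, none of the 9 among them, and 2117 and 1946 in nodules, with 3 and 5 of the 9. For the interactions it left 54, 19 and 3 genes. At 8 weeks 1 of the 9 was called in a fit of all 8 groups and without the F rats.

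With the rat as replicate block, the pairing of NT liver and nodules gave 1693 genes and 6 of the 9 at 20 weeks, where the unpaired fit gave 0, and 0 at 14 weeks. For the same comparison at 20 weeks DESeq2 gave 881 genes (4 of the 9), the fit of all 8 groups 1096 (3) and nodule 1 alone 218 (1), and at 14 weeks DESeq2 gave 37. The cause of these differences was not tested. Between untreated groups, DESeq2 called 21 and 19 genes, no filter 2 and 2, and the fit of all groups 1 in the earlier step. The interaction of NT liver between 14 and 8 weeks (731 genes) had 124 in the fit of all groups and 1349 with total count scaling, with 1 of the 9 called without the F rats. That between 20 and 14 weeks (79) had 298 with DESeq2, 39 in the fit of all groups, 139 with total count scaling and 166 without the F rats. For nodules (10), DESeq2 gave 27, the fit of all groups 16 and nodule 1 alone 5.

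Leaving out each rat in turn gave 1 to 4 of the 9 genes in NT liver at 8 weeks (1 without F10 or H07, 4 without H17), 5 to 6 at 14 weeks and 3 to 5 at 20 weeks, and in nodules 5 to 8 and 8 to 8. Over all genes these were 1914 to 2913, 3401 to 3867, 1403 to 2111, 4006 to 4686 and 3869 to 4671. Nodules against NT liver gave 0 to 0 at 14 weeks and 0 to 2 of the 9 (0 to 445 of all genes, the latter without H25) at 20 weeks. Untreated groups gave 0 to 117 (without H07) and 0 to 2 genes. The interactions gave 418 to 1264, 31 to 335 and 6 to 15 genes, with 0 to 1 of the 9 in the earlier NT step and 0 to 0 in the others.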
